A study of Mus musculus with 12 samples.

Results

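Benzalkonium chloride (BAK) is a quaternary ammonium detergent used as a preservative in eye drops, and its repeated application injures the ocular surface. The comparison described here set the 3 BAK-injured libraries labelled Vehicle against the 3 uninjured libraries labelled Control, which together are 6 of the 12 libraries of the study. Each eye of the injured mice received 5 µl of 0.2% BAK daily for 14 days, and the Vehicle corneas are labelled as injured without treatment, while the Control corneas had neither injury nor treatment. Each library was made from total RNA of a pool of 6 corneas from 3 mice, so the replicates are pools and no value belongs to a single animal. The strain, age and sex of the mice, what the Vehicle eyes received after BAK, and the interval between the last BAK drop and harvest are not stated. The other 6 libraries came from injured corneas given products of cord blood (labelled UCS and UCPRP). They entered the filter on low counts, the scaling and the estimate of the spread, and they are not compared here.

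The cornea is covered by a stratified, non-keratinized epithelium on a collagen stroma kept by keratocytes, with a single layer of endothelial cells behind it. Its epithelium carries a membrane glycocalyx, very high levels of a few soluble enzymes and a set of small Ly6-type proteins, and it normally lacks the goblet cells and the mucin-modifying enzymes of the neighbouring conjunctiva. Injury of this surface is known to bring in neutrophils and monocytes, to activate stromal cells, and to allow epithelium of another character to cover the stroma. In whole corneas, fewer cells of a type and less RNA per cell cannot be told apart. Keratins, mucins, cytokines and complement are the usual readouts of this injury, and the description below therefore goes to other gene families and to genes in no usual corneal list.

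The 6 libraries held 18988733 to 20443757 estimated counts, and levels are given as CPM (counts scaled to a common library size and for composition), in the order of replicates 1, 2 and 3. Correlations of log2 CPM between libraries were 0.972 to 0.991 within Control, 0.97 to 0.979 within Vehicle and 0.925 to 0.956 between the groups. Adjusted p values set each difference between the groups against the spread between pools, which was estimated over all 12 libraries. Of the markers that define the cornea, Pax6 was at 640.1, 705 and 622 CPM in Control and 440.3, 380.5 and 445 CPM in Vehicle, while Krt12, the corneal keratin, was at 18900, 32860 and 15900 CPM in Control and 9.19, 7.18 and 23.9 CPM in Vehicle. Transcripts of tissue behind the cornea were present in every library and varied within both groups. Marker genes of the retina summed to 4423 to 11770 CPM in Control and 3270 to 14680 CPM in Vehicle, and those of the lens to 621 to 14450 CPM in Control and 337 to 10450 CPM in Vehicle. The clock genes Dbp and Arntl divided the libraries as well, with Dbp above Arntl in Control 1, Control 2 and Vehicle 3 and below it in Control 3, Vehicle 1 and Vehicle 2. Vehicle 3 was thus the only Vehicle library of the first kind, and anything particular to that library cannot be told apart from its clock phase.

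Of 19702 genes, 16124 passed the filter on low counts, and 2661 of them (16.5%) were called at an adjusted p under 0.05 by edgeR's quasi-likelihood test, to which every adjusted p of a gene below refers unless another tool is named. In Vehicle 1545 genes (9.58%) were higher and 1116 (6.92%) were lower. The fit of only the 6 libraries compared called 1173 higher and 604 lower. The median log2 fold change of all tested genes was 0.00, and 917 of the higher and 389 of the lower genes differed by at least 1 on the log2 scale. The CPM values of the groups did not overlap for 30.6% of the tested genes. Non-overlap was also a condition for naming many of the genes below, and it gives those genes no added support. The lower genes depended most on a single library, since 626 were called without Vehicle 2. With library totals in place of composition scaling, 2020 genes were higher and 868 lower, which raised the share of higher calls from 58.1% to 69.9%. Within the libraries with Dbp above Arntl 393 genes were higher and 181 lower, and within the others 129 were higher and 25 lower, from 1 or 2 libraries of each group. Of the called genes, 1424 were called in the same direction in each of 15 other ways of fitting, and 2120 were in none of the 65 gene lists used here.

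Beside the mucins Muc5ac and Muc5b, the smallest adjusted p values included genes that are not usual corneal markers. Homer2 (chr7:81600481-81706925, GRCm38.p6) encodes a scaffold protein of the Homer family, which ties glutamate receptors and calcium channels together. Homer2 stood at 129, 164 and 114 CPM in Control and 4.03, 6.88 and 6.12 CPM in Vehicle, so that the highest Vehicle library was far below the lowest Control library (log2 difference of -4.58 ± 0.23 (SE), adjusted p = 8.59e-06). Kif26a, an atypical kinesin, had 25.02, 22.8 and 20.8 CPM in Control and 3.302, 3.17 and 3.21 CPM in Vehicle, with almost no spread between the Vehicle pools (log2 difference of -2.82 ± 0.17 (SE), adjusted p = 1.06e-05). Klrg2, a lectin-like receptor gene, fell from 80.05, 94.2 and 62.4 CPM to 15.5, 12.9 and 12.8 CPM. Raver2, which encodes an RNA-binding partner of the splicing factor PTB, fell by 1.75 on the log2 scale.

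In the other direction, Sptssb (chr3:69819538-69861363) encodes a small subunit of serine palmitoyltransferase, the enzyme that starts sphingolipid synthesis. Its level was 7.46, 10.2 and 10.2 CPM in Control and 151, 91.3 and 151 CPM in Vehicle (log2 difference of 3.82 ± 0.23 (SE), adjusted p = 1.06e-05). Fut9, an alpha-1,3-fucosyltransferase that makes Lewis X on glycans, had 3.604, 4.57 and 5.59 CPM in Control and 36.4, 26.3 and 33.1 CPM in Vehicle (log2 difference of 2.80 ± 0.18 (SE), adjusted p = 2.24e-05). Golm1, a Golgi membrane glycoprotein, rose by 1.90 on the log2 scale from 17.5, 19.3 and 20.4 CPM to 84.3, 61.03 and 67.4 CPM. A pair of genes known only by identifier, Gm42368 and Gm39972, rose as tightly: Gm42368 was at 88.2, 94.99 and 116 CPM in Control and 450.3, 416 and 482 CPM in Vehicle, and Gm39972 was at 48.8, 55.1 and 55.8 CPM in Control and 262, 254 and 296 CPM in Vehicle. In none of these genes did the groups overlap, which was a condition for naming some of them. Each of them was called in all 15 other ways of fitting.

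**Figure D1:**
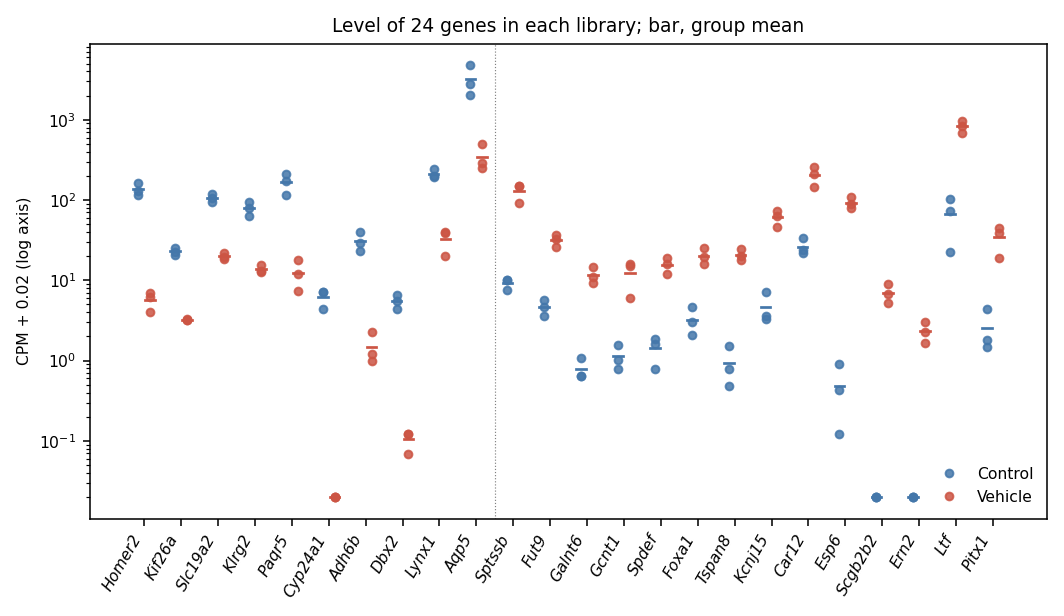
Level of 24 genes in CPM (plus 0.02, on a log axis) in each of the 3 Control and 3 Vehicle libraries; short bars are group means, and the dotted line divides genes lower in Vehicle (left) from genes higher in Vehicle (right). The points of the groups do not overlap for any of the genes shown, which was a condition for naming many of them. Cyp24a1 in Vehicle and Scgb2b2 and Ern2 in Control lie at 0 counts.

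Some transcripts were present in one group and at 0 counts in every library of the other, where a count of 0 allows up to 3 counts, or 0.147 to 0.178 CPM in these libraries. Cyp24a1, the hydroxylase that degrades active vitamin D, was at 7.05, 7.23 and 4.35 CPM in Control and had no count in Vehicle, at least 41.0-fold lower (adjusted p = 9.85e-05). Slurp2 was at least 17.2-fold lower and Ifnl3, a type III interferon, at least 18.5-fold lower in Vehicle, from 2.37, 3.26 and 2.79 CPM in Control. Ctag2l1, a cancer/testis antigen-like gene, was at least 7.61-fold lower. Conversely, Scgb2b2 and Scgb1b2, which encode secretoglobins, were at least 42.9-fold and 14.3-fold higher in Vehicle. Ern2, the inositol-requiring enzyme of mucous epithelia, was at 2.27, 1.66 and 3.01 CPM in Vehicle, at least 14.2-fold higher (adjusted p = 0.000181). Ffar2, a receptor for short-chain fatty acids, and Gm12873 were at least 5.18-fold and 9.70-fold higher. The murinoglobulins Mug1 and Mug2, protease inhibitors with near-identical sequences whose reads may be divided uncertainly, were at least 11.7-fold and 8.14-fold higher. These bounds cover counting error only.

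The families that stood highest and lowest above the background of called genes are shown in the plot of called members by family. Of 53 tested Fc, Siglec, CD300, PIR and MS4A receptors 42 (79.2%) were called, of 13 cathepsins 8 (61.5%), of 37 C-type lectins 21 (56.8%), of 31 members of the Ly6 and uPAR domain family 16 (51.6%), of 33 tetraspanins and uroplakins 17 (51.5%), of 30 membrane serine proteases 13 (43.3%) and of 40 cytochromes P450 17 (42.5%), beside 16.5% of all tested genes. No test compared a family with the other genes. Members that did not pass the filter on low counts have no call and are not in these shares; 45 of 85 cytochromes P450 and 58 of 66 lipocalins, BPI-fold proteins and secretoglobins in the table were among them.

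**Figure D2:**
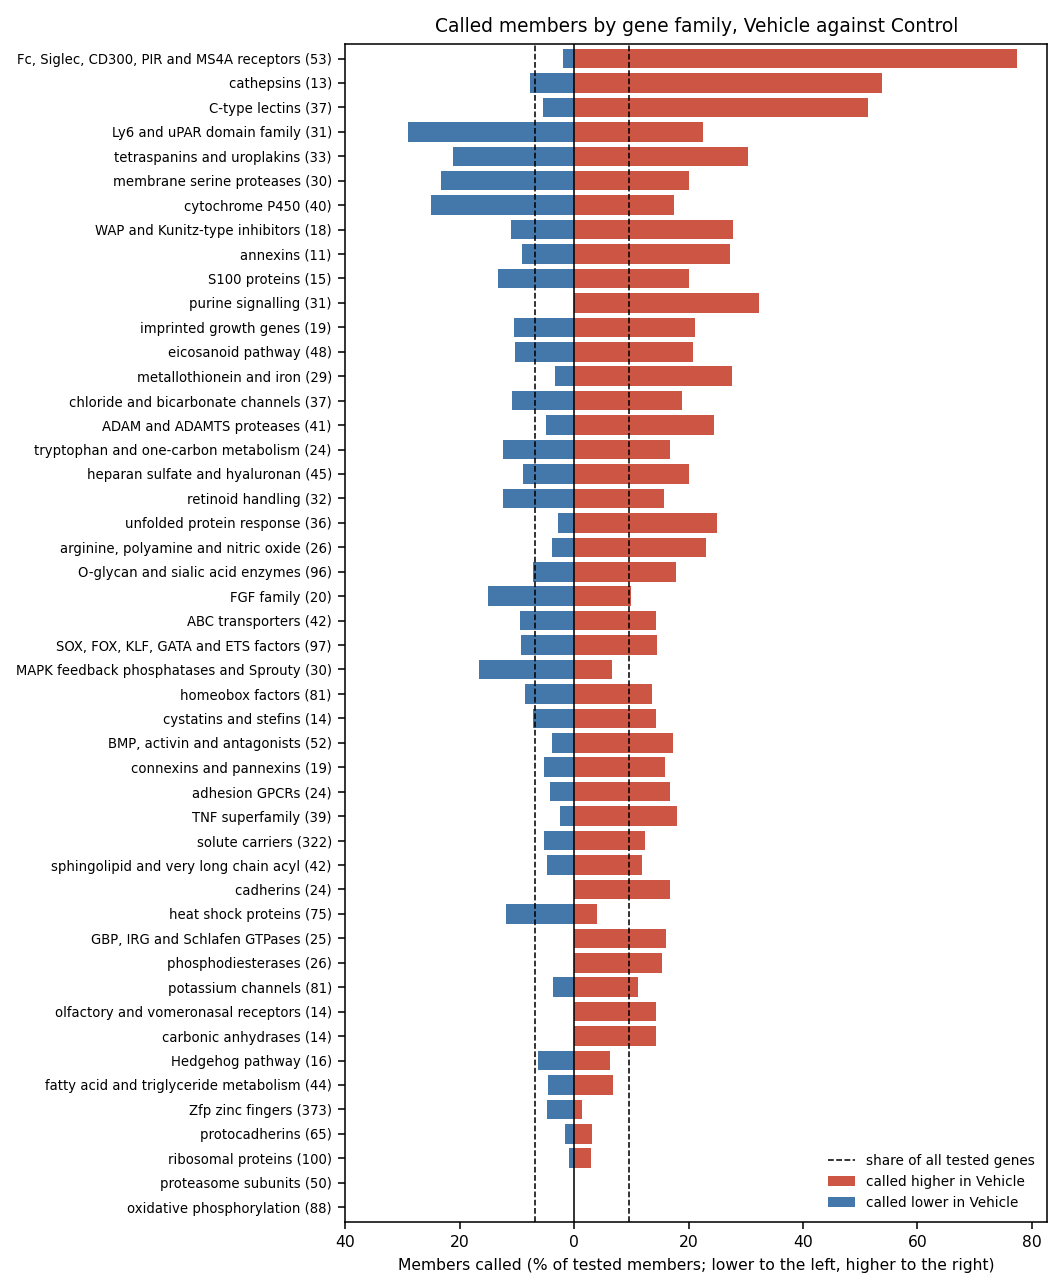
Share of tested members called higher (right) and lower (left) in Vehicle than in Control for the gene families with at least 10 tested members, the number of which is in parentheses; dashed lines mark the shares over all tested genes, 9.58% higher and 6.92% lower. Leukocyte receptors, cathepsins and C-type lectins lie far to the right, Ly6 proteins, cytochromes P450 and membrane serine proteases reach well past both lines, and proteasome and oxidative phosphorylation genes have no called member.

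Abundant epithelial transcripts other than the keratins were among the largest losses in CPM. Aqp5, the water channel of the corneal epithelium, fell from 2773, 4748 and 2040 CPM to 290.2, 247 and 506 CPM (log2 difference of -3.20 ± 0.39 (SE), adjusted p = 0.000326). Tkt, the transketolase that makes up a large part of the soluble protein of the corneal epithelium, fell from 3976, 5459 and 2993 CPM to 673, 600.2 and 726 CPM (log2 difference of -2.64 ± 0.25 (SE), adjusted p = 0.000105). Transketolase needs thiamine pyrophosphate, and Slc19a2, the thiamine transporter, was lower too, with 93.3, 107 and 118 CPM in Control and 21.6, 18.4 and 19.5 CPM in Vehicle (log2 difference of -2.42 ± 0.17 (SE), adjusted p = 2.87e-05). Mgarp, a mitochondrial membrane protein, fell by 2.68 on the log2 scale and Upk3bl, a uroplakin-like membrane protein, by 2.33. Prss23, a secreted serine protease, fell from 282, 429.5 and 306 CPM to 100.1, 80.2 and 118 CPM.

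Less abundant epithelial genes fell as well. Paqr5, a membrane progesterone receptor, had 173, 208 and 117 CPM in Control and 11.9, 7.28 and 18.02 CPM in Vehicle, and Adh6b, an alcohol dehydrogenase, had 23.1, 39.5 and 29.2 CPM in Control and 1.19, 0.977 and 2.25 CPM in Vehicle. Dapl1 stood at 367, 471 and 356 CPM in Control and 30.1, 72.9 and 45.8 CPM in Vehicle, with Vehicle 2 the highest injured pool. Erich5 fell from 79.8, 91.9 and 77.5 CPM to 6.66, 10.1 and 10.4 CPM. Hal, the histidine ammonia-lyase that forms urocanic acid in surface epithelia, fell by 3.58 on the log2 scale. Gkn1, a gastrokine otherwise known from the stomach lining, was at 4.79, 7.35 and 3.83 CPM in Control and 0.3096, 0.146 and 0.05104 CPM in Vehicle, with a log2 fold change of -4.93 that became -5.65 without Vehicle 1. Hspb1, a small heat shock protein of keratinocytes, fell from 577, 1127 and 363 CPM to 151, 148 and 218 CPM. Of 75 tested heat shock and cochaperone genes 9 (12%) were lower and 3 (4%) higher, beside 6.92% and 9.58% of all tested genes. The share called either way was 16%, near the 16.5% of all tested genes. The groups did not overlap in any gene named in this paragraph, but the rule by which such genes were named required this.

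Metabolism of vitamins and small lipids moved in both directions. Of 40 tested cytochromes P450, 10 (25%) were lower and 7 (17.5%) higher, beside 6.92% and 9.58% of all tested genes. Beside Cyp24a1, the largest losses were Cyp4a12a, a fatty acid omega-hydroxylase (4.27, 5.396 and 3.99 CPM in Control and 0.464, 0 and 0.357 CPM in Vehicle; log2 fold change -4.04, and -4.64 without Vehicle 1 and -3.44 without Vehicle 2), and Cyp2b19, an epoxygenase of keratinocytes (8.65, 5.57 and 9.42 CPM in Control and 0.103, 0.0488 and 1.43 CPM in Vehicle; log2 fold change -3.89, and -6.59 without Vehicle 3). Of 32 tested retinoid genes 5 (15.6%) were higher and 4 (12.5%) lower. Crabp2, which carries retinoic acid to its receptor, rose from 3.19, 6.05 and 5.95 CPM to 63.9, 70.7 and 37.5 CPM (log2 difference of 3.50 ± 0.41 (SE), adjusted p = 0.000264). The retinol dehydrogenase Rdh16 rose from 1.13, 2.08 and 3.73 CPM to 15.9, 11.9 and 11.7 CPM. Bco1, which cleaves beta-carotene to retinal, fell from 2.32, 3.79 and 2.79 CPM to 0.619, 0.684 and 0.612 CPM, and Aldh1a1, a retinaldehyde dehydrogenase, fell by 1.5 on the log2 scale. Dhrs9, another retinol dehydrogenase, had 2 counts in Control and 132 in Vehicle, a ratio of 61.7 (95% interval 16.8 to 515.1, counting error only). Its fitted log2 fold change was 5.72, and 5.01 without Vehicle 1.

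Among lipid mediators, 10 of 48 tested eicosanoid genes (20.8%) were higher and 5 (10.4%) lower, beside 9.58% and 6.92% of all tested genes. Ptgs2, the inducible cyclooxygenase, had 7.41, 8.84 and 4.81 CPM in Control and 52.6, 26.7 and 18.5 CPM in Vehicle. Alox5ap, the activating protein of 5-lipoxygenase, rose from 2.73, 4.45 and 3.83 CPM to 22.2, 23.1 and 14.3 CPM (log2 difference of 2.44 ± 0.28 (SE), adjusted p = 0.000214). Pla2g2f, an epidermal secreted phospholipase, fell from 2.68, 3.85 and 2.74 CPM to 0.0516, 0.293 and 0.5104 CPM (log2 fold change -3.40, and -4.10 without Vehicle 3). Of 42 sphingolipid genes 5 (11.9%) were higher and 2 (4.76%) lower, near the shares of all genes. The receptor S1pr2 rose by 1.38 on the log2 scale, with 6.95, 7.41 and 6.21 CPM in Control and 20.9, 15.9 and 16.8 CPM in Vehicle, while S1pr5 fell by 1.29. Sptssb, described above, is not in that list.

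Of 26 tested genes of arginine and polyamine metabolism 6 (23.1%) were higher and 1 (3.85%) lower, beside 9.58% and 6.92% of all tested genes. Odc1, the ornithine decarboxylase that opens polyamine synthesis, was the lower one, from 299, 431 and 252 CPM to 189, 156 and 138 CPM. Arg2, the mitochondrial arginase, rose from 1.54, 0.356 and 1.29 CPM to 7.07, 7.52 and 3.21 CPM. Of 24 genes of tryptophan and one-carbon metabolism 4 (16.7%) were higher and 3 (12.5%) lower. Cbs, which starts transsulfuration, was at 11.1, 12.7 and 12.01 CPM in Control and 2.94, 3.66 and 5.05 CPM in Vehicle (log2 difference of -1.62 ± 0.23 (SE), adjusted p = 0.00075), and Kmo, the kynurenine hydroxylase, rose by 2.33 on the log2 scale.

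A run of neighbouring genes on chromosome 15 carried some of the largest losses. At chr15:74714839-74752979 (GRCm38.p6, RefSeq), 6 consecutive tested genes were lower: Psca, Them6, Slurp1, Lypd2, Slurp2 and Lynx1, of which all but Them6, a thioesterase family gene, encode Ly6-type proteins. Slurp1 was at 1339, 2109 and 1091 CPM in Control and 0.516, 0.244 and 1.07 CPM in Vehicle and Lypd2 at 1409, 2365 and 1319 CPM in Control and 0.464, 0.195 and 0.817 CPM in Vehicle, a nearly complete loss of both. Lynx1, which binds nicotinic acetylcholine receptors and damps their response, kept part of its level, with 200.4, 241 and 192 CPM in Control and 20.1, 39.5 and 38.6 CPM in Vehicle (log2 difference of -2.69 ± 0.30 (SE), adjusted p = 0.00021). Them6 had 22.5, 33.5 and 14.9 CPM in Control and 2.84, 7.32 and 6.28 CPM in Vehicle. Psca fell the least, from 1558, 2892 and 1464 CPM to 1118, 881 and 976 CPM (adjusted p = 0.018), and its call was lost without Vehicle 2 (adjusted p = 0.0744) and without Vehicle 3 (0.0518); over the 15 alternatives its adjusted p ran from 0.000459 to 0.0875. The Control and Vehicle values of all 6 genes did not overlap, as in 30.6% of all tested genes. The 6 had been chosen by their calls, so this adds no support.

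Other members of the Ly6 and uPAR domain family changed in both directions. Of 31 tested members 9 (29%) were lower and 7 (22.6%) higher, beside 6.92% and 9.58% of all tested genes. Lypd8, known from the colon surface, fell from 4.99, 6.23 and 3.88 CPM to 0.671, 0.293 and 0.612 CPM. Plaur, the urokinase receptor, rose from 0.875, 2.02 and 2.07 CPM to 26.5, 19.2 and 6.17 CPM (log2 difference of 3.39 ± 0.50 (SE), adjusted p = 0.000906), and Spaca4, a gene named for the sperm acrosome, rose from 0.0515, 0.119 and 0.0518 CPM to 1.55, 1.32 and 2.19 CPM.

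The region around Pax6, the master transcription factor of the eye, formed a second run of lower genes, at chr2:105668896-106868361. Pax6 itself fell by 0.63 on the log2 scale, from 640.1, 705 and 622 CPM to 440.3, 380.5 and 445 CPM. Dcdc5, a doublecortin-domain gene between Pax6 and Mpped2, fell more, from 19.9, 21.6 and 15.1 CPM to 4.33, 5.71 and 4.44 CPM (log2 difference of -1.96 ± 0.21 (SE), adjusted p = 0.000169). Elp4, an Elongator subunit whose introns hold known Pax6 enhancers, fell by 0.44 from 50.4, 49.5 and 47.7 CPM to 36.1, 38.3 and 34.6 CPM. Its call was lost with library totals in place of composition scaling (adjusted p = 0.0541) and in the fit of the 6 libraries (0.0517), in a range of 2.49e-05 to 0.0541 over its alternatives. Its 3' end overlaps Pax6 over 1091 bases, and no source states whether counting used the strand. Reads in that stretch cannot be told apart. Immp1l, a mitochondrial protease subunit, fell by 0.61, Dnajc24, a diphthamide synthesis gene, by 0.71 and Mpped2, a metallophosphoesterase, by 0.74. Elp4 and Immp1l start head to head, so that their promoter windows share 173 bases. The calls of these weaker genes rested on few libraries. Without Vehicle 2 the adjusted p was 0.111 for Immp1l and 0.0595 for Dnajc24, and without Vehicle 1 it was 0.0856 for Immp1l and 0.0535 for Mpped2. Immp1l was also lost without Vehicle 3 (0.0672) and Mpped2 without Control 2 (0.0612). Over the 15 alternatives the adjusted p ran from 0.013 to 0.137 for Immp1l, from 0.00138 to 0.0635 for Dnajc24 and from 0.00325 to 0.103 for Mpped2.

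The third run of lower genes lay on chromosome 19, at chr19:6987911-7019469, and held Dnajc4, Nudt22, Trpt1 and Fermt3. Fermt3 encodes kindlin-3, the integrin activator of blood cells, and it fell from 55.8, 90.9 and 44.3 CPM to 19.7, 19.4 and 22.8 CPM (log2 difference of -1.62 ± 0.24 (SE), adjusted p = 0.000849) while the leukocyte receptors described below rose. Fermt3 and Trpt1 overlap over 1364 bases. Nudt22 and Trpt1 start head to head, with promoter windows that share 193 bases, and fell by 0.83 and 0.56. The call of Trpt1 was lost without Control 2 (adjusted p = 0.0905), Vehicle 1 (0.0685) or Vehicle 2 (0.102), within a range of 0.00791 to 0.102 over its alternatives.

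In all, 28 runs of at least 4 consecutive tested genes were called in one direction. They held 133 genes, of which 117 in 25 runs were higher and only 16 in these 3 runs were lower. Most runs of higher genes were arrays of gene families: Il1r2 to Slc9a4 on chromosome 1, Cd300 genes and Krt19 to Krt17 on chromosome 11, Sprr2 genes and Sirpb1 genes on chromosome 3, C1q genes on chromosome 4, Clec4 genes on chromosome 6 and Pira and Pirb genes on chromosome 7. The runs rest on the calls of the fit over all libraries and were not counted under the alternatives. The run from Krt19 to Krt17 has fewer than 4 genes where Krt19 is not called (adjusted p of 0.0539 without Control 1, 0.0616 without Control 3, 0.0828 without Vehicle 1, 0.117 without Vehicle 3, in a range of 0.00363 to 0.117 over the alternatives), and the first run is shorter by 1 gene where Slc9a4 is not called (adjusted p of 0.0722 without Control 1, 0.0651 without Control 2, 0.0665 without Vehicle 1, in a range of 0.014 to 0.0722 over the alternatives). Members of such arrays resemble each other, and no source states how reads that match several of them were divided.

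**Figure D3:**
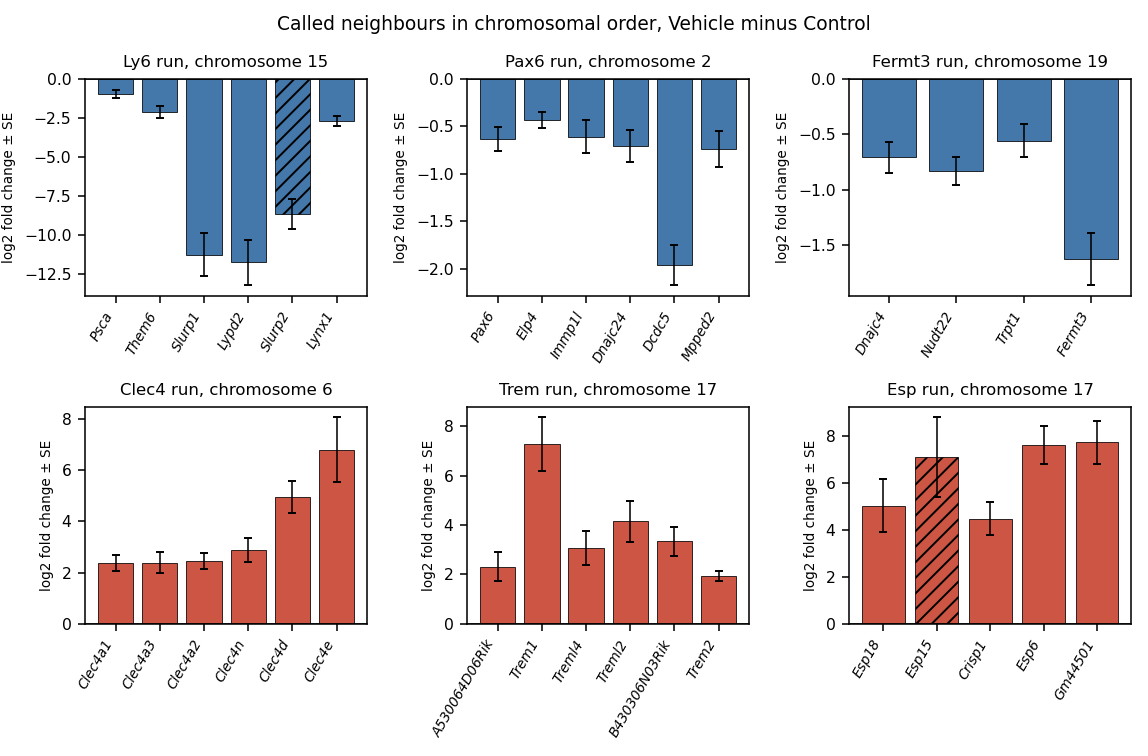
Log2 fold change (Vehicle minus Control, edgeR, ± SE) of the genes in 6 of the 28 runs of called neighbours, in chromosomal order; hatched bars are genes with 0 counts in every library of one group, whose fitted value depends on the prior count. The upper panels show the 3 runs of lower genes, with Slurp1, Lypd2 and Slurp2 the lowest, and the lower panels show 3 runs of higher genes.

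Of 81 tested homeobox genes 11 (13.6%) were higher and 7 (8.64%) lower, and of 97 SOX, FOX, KLF, GATA and ETS factors 14 (14.4%) were higher and 9 (9.28%) lower, beside 9.58% and 6.92% of all tested genes. Spdef and Foxa1, factors of goblet and other secretory cells, rose from 0.772, 1.601 and 1.81 CPM to 18.8, 11.9 and 16.1 CPM (log2 difference of 3.48 ± 0.33 (SE), adjusted p = 0.000105) and from 2.06, 3.02 and 4.61 CPM to 24.97, 19.4 and 15.8 CPM (log2 difference of 2.63 ± 0.29 (SE), adjusted p = 0.000176). Six2, known from kidney progenitors and craniofacial mesenchyme, was at 1.49, 2.19 and 2.79 CPM in Control and 13.3, 13.3 and 13.98 CPM in Vehicle, the 3 Vehicle pools being almost equal. Pitx1, a hindlimb and oral epithelium factor, had 1.44, 1.78 and 4.35 CPM in Control and 38.9, 44.8 and 19.04 CPM in Vehicle, with a log2 fold change of 3.75 that was 4.41 without Control 3. Spi1, which encodes the myeloid factor PU.1, rose from 4.94, 6.52 and 3.62 CPM to 26.4, 24.8 and 15.3 CPM.

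The largest losses in the homeobox list were Dlx3, a regulator of epidermal differentiation, from 4.48, 4.27 and 2.43 CPM to 0.3096, 0.342 and 0.357 CPM (log2 difference of -3.44 ± 0.39 (SE), adjusted p = 0.000221), and its relative Dlx5, from 3.04, 3.91 and 1.81 CPM to 0.619, 0.195 and 0.153 CPM (log2 fold change -3.16, and -4.01 without Vehicle 1). Tfap2e, a member of the AP-2 family, fell from 2.99, 3.56 and 2.43 CPM to 0.671, 0.586 and 0.715 CPM. Dbx2, a homeobox gene of the neural tube outside the list, was at 5.51, 6.46 and 4.4 CPM in Control and 0.103, 0.0488 and 0.102 CPM in Vehicle (log2 difference of -5.91 ± 0.47 (SE), adjusted p = 5.37e-05). Id2, an inhibitor of basic helix-loop-helix factors, fell by 1.42 on the log2 scale from 190.3, 283 and 163 CPM to 85.3, 65.9 and 85.9 CPM.

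Of 96 tested genes in the list of O-glycan and sialic acid enzymes 17 (17.7%) were higher and 7 (7.29%) lower. Of all tested genes 9.58% were higher and 6.92% lower. The list was taken by gene symbol and also holds enzymes of other sugars, such as Fut8 and Mgat2. Galnt6, which adds the first GalNAc to serine and threonine, had 0.618, 1.07 and 0.621 CPM in Control and 14.7, 11.03 and 9.19 CPM in Vehicle (log2 difference of 3.92 ± 0.36 (SE), adjusted p = 9.85e-05). Gcnt1 and Gcnt3, which branch O-glycans, rose from 0.772, 1.01 and 1.55 CPM to 15.9, 14.9 and 6.02 CPM and from 0.103, 0.0593 and 0.155 CPM to 1.55, 1.27 and 2.04 CPM. In all 3 the highest Control library was below the lowest Vehicle library, as the rule for naming them required. Tspan8, a tetraspanin of secretory epithelia, rose from 0.463, 0.771 and 1.501 CPM to 24.4, 17.97 and 19.9 CPM (log2 difference of 4.49 ± 0.41 (SE), adjusted p = 9.85e-05).

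Of 36 tested genes of the unfolded protein response 9 (25.0%) were higher, beside 9.58% of all tested genes. The lower one was Ppp1r15a, which encodes a phosphatase subunit that ends the translation block, from 66.5, 104 and 76.7 CPM to 48.04, 34.1 and 40.01 CPM. Creb3l1 and Creb3l4, membrane-bound factors of secretory cells, rose by 1.62 and 2.04 on the log2 scale, Creb3l1 from 5.92, 8.24 and 10.1 CPM to 26.6, 23.5 and 24.3 CPM. Derl3, a channel component for misfolded proteins, rose from 0.669, 0.652 and 0.673 CPM to 1.81, 2.002 and 1.28 CPM. Ern2, at 0 counts in Control, belongs to this list too.

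On chromosome 17, a run at chr17:39406359-40579549 held Esp18, Esp15, Crisp1, Esp6 and Gm44501, all higher in Vehicle. The Esp genes encode exocrine gland-secreted peptides, some of which are known as pheromones from the lacrimal gland of mice. Esp6 was the most abundant, with 0.103, 0.415 and 0.8799 CPM in Control and 87.98, 80.2 and 110.3 CPM in Vehicle, and its log2 fold change of 7.61 was 8.5 without Control 3 (adjusted p = 0.000162). Gm44501 covers the whole of Esp6, overlapping it over 4121 bases from the same start, and had 0, 0.0593 and 0.155 CPM in Control and 17.8, 13.9 and 18.7 CPM in Vehicle, so that reads of the pair cannot be assigned with certainty. Crisp1, a cysteine-rich secretory protein, rose from 0.0515, 0 and 0.621 CPM to 6.97, 4.83 and 3.98 CPM (log2 fold change 4.47, and 7.27 without Control 3). Esp18 had 1 count in Control and 47 in Vehicle, a ratio of 44.0 (95% interval 7.52 to 1773, counting error only), and its fitted log2 fold change of 5.03 was 6.97 without Control 2 and 3.95 without Vehicle 1. Esp15 had no count in Control and 1.81, 0.781 and 0.102 CPM in Vehicle, and its call was lost without Vehicle 1 (adjusted p = 0.0535), in a range of 0.000406 to 0.0535 over its alternatives.

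The promoters of the Esp genes are shown because all 3 genes were called higher from nearly nothing. They did not follow each other across the Vehicle pools: Esp6 was highest in Vehicle 3, where Esp15 was lowest and could not be told from 0. The sequences are from RefSeq (GRCm38.p6) and run from 250 bases before to 50 bases after each start, on the plus strand; capitals mark AGCAGCCAAT, the longest run of letters, 10 bases, that all 3 windows share. Esp6 lies at chr17:40561257-40561556, Esp15 at chr17:39640707-39641006 and Esp18 at chr17:39406109-39406408.
Esp6: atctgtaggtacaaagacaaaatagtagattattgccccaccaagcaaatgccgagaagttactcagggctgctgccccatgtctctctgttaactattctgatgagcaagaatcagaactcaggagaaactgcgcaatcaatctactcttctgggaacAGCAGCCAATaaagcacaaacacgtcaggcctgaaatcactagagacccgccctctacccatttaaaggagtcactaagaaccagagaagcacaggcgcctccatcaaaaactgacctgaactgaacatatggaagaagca
Esp15: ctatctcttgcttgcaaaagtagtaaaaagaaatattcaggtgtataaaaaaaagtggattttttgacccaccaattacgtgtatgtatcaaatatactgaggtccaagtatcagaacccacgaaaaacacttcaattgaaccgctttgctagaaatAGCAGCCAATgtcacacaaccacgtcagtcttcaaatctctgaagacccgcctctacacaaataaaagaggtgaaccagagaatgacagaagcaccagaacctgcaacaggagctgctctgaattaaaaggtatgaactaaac
Esp18: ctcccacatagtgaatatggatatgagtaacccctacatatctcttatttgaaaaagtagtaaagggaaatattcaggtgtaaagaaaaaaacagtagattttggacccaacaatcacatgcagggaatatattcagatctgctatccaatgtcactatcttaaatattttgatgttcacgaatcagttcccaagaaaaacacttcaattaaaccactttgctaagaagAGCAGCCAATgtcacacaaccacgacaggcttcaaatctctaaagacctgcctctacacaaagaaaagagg
The shared run ends in CCAAT, the core of the CCAAT box. On either strand, AGCAGCCAAT is in 112 of 27025 promoters of the table (0.414%), and CCAAT, with which it overlaps, is in 37.8%. The match is a description of the letters and was found after these genes had been chosen by their values.

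The secretoglobin genes Scgb1b2 and Scgb2b2 on chromosome 7, whose products belong to the androgen-binding protein family of glands and saliva, had no count in any Control library. In Vehicle, Scgb2b2 was at 6.71, 5.13 and 9.08 CPM and Scgb1b2 at 2.27, 1.42 and 3.27 CPM, and in both Vehicle 3 was highest. The pair lies head to head, on opposite strands, and the promoters are printed because both genes went from no count to a measurable level together; capitals mark TATAAA, the TATA box sequence, on either strand. Scgb1b2 is at chr7:31291767-31292066 on the minus strand and Scgb2b2 at chr7:31302519-31302818 on the plus strand.
Scgb1b2: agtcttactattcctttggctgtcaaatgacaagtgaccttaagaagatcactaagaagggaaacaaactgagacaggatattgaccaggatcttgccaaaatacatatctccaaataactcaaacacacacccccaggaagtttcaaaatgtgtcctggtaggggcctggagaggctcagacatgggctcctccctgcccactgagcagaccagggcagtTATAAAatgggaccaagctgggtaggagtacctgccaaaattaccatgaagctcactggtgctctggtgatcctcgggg
Scgb2b2: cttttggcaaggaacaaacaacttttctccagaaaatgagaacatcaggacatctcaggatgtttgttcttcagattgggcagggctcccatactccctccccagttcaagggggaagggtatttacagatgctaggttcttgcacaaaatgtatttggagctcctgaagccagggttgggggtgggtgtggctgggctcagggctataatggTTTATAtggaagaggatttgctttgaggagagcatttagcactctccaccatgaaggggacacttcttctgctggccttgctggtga
TATAAA occurs on either strand in 3821 (14.1%) of all promoters of the table and in 1055 (8.3%) of the 12704 promoters of tested genes. The defining lacrimal gland markers Lcn11 and Pip had at most 1 count in any library, and the list of lacrimal and salivary markers, of which Esp15 and Scgb2b2 themselves were the 2 called among 5 tested, summed to 15.3 to 25.1 CPM in Control and 22.4 to 41.1 CPM in Vehicle; its part in the Esp and secretoglobin values was not tested.

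Of 81 tested potassium channel genes 9 (11.1%) were higher and 3 (3.7%) lower, near the 9.58% and 6.92% of all tested genes. Kcnj15, an inward rectifier of secretory epithelia, had 3.24, 3.56 and 7.195 CPM in Control and 63.98, 72.2 and 46.6 CPM in Vehicle (log2 difference of 3.70 ± 0.32 (SE), adjusted p = 9.7e-05), and its relative Kcnj16 rose from 0.3604, 0.534 and 0.932 CPM to 5.47, 4.004 and 4.24 CPM. Kcne3, a subunit that keeps potassium channels of crypt cells open, rose from 0.154, 0.178 and 0.0518 CPM to 1.75, 2.15 and 4.29 CPM, Vehicle 3 being highest. Kcng3, a silent channel subunit, fell from 28.2, 17.6 and 20.6 CPM to 2.79, 3.66 and 3.98 CPM (log2 difference of -2.67 ± 0.26 (SE), adjusted p = 0.00011).

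Car12 and Car13, which hydrate carbon dioxide outside and inside the cell, were the called carbonic anhydrases. They were 2 of 14 tested (14.3%), near the 16.5% of all tested genes called. Car12 rose from 21.6, 23.7 and 33.2 CPM to 259.5, 210.2 and 147 CPM (log2 difference of 2.97 ± 0.24 (SE), adjusted p = 5.37e-05) and Car13 from 22.3, 36.3 and 36.8 CPM to 150.5, 107 and 84.7 CPM. Among the anoctamins, Ano9 and Ano4 fell by 1.88 and 1.87 on the log2 scale, while Ano7 rose from 0.875, 0.0593 and 0.518 CPM to 5.42, 4.34 and 5.41 CPM (log2 fold change 3.34, and 4.05 without Control 1). Of 322 tested solute carriers 40 (12.4%) were higher and 17 (5.28%) lower, near the shares of all genes. Slco4c1, an organic anion carrier, rose from 0.412, 0.296 and 0.725 CPM to 5.88, 3.96 and 5.87 CPM, and Slc28a2, a nucleoside carrier, from 0.3604, 0.474 and 0.725 CPM to 3.87, 3.32 and 2.19 CPM. The efflux pumps Abcc3 and Abcc1 rose by 2.36 and 1.03.

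Purine signalling was one of the families with calls in one direction, as 10 of 31 tested members (32.3%) were higher and none was lower. Of all tested genes 9.58% were higher and 6.92% lower. At an unadjusted p under 0.05 in edgeR 18 of the purine members differed, but no share of all tested genes is given here for that threshold. Nt5e, the ectonucleotidase CD73 that forms adenosine, had 71.3, 106 and 133 CPM in Control and 264, 214 and 272 CPM in Vehicle (log2 difference of 1.27 ± 0.20 (SE), adjusted p = 0.00145). The nucleotide receptors P2ry6 and P2ry13 rose by 1.28 and 1.5, P2ry6 from 3.55, 4.803 and 4.81 CPM to 11.6, 9.47 and 10.97 CPM.

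The list of Fc, Siglec, CD300, PIR and MS4A receptors had the highest share of called members among the families shown. Of 53 tested Fc, Siglec, CD300, PIR and MS4A receptors 41 (77.4%) were higher, with a median log2 fold change of 2.17 over the tested members beside 0.00 over all genes, and 1 was lower. Of 37 tested C-type lectins 19 (51.4%) were higher and 2 lower, with a median of 1.28. Over all tested genes 9.58% were higher and 6.92% lower. Many of these receptors are known from neutrophils, monocytes, macrophages and dendritic cells, but the lists also hold genes of other cells, such as the B cell receptor gene Cd22. Clec4d and Clec4e, receptors for microbial glycolipids and for damaged cells, lie side by side on chromosome 6 and stood at 0.566, 0.652 and 0.828 CPM in Control and 28.7, 29.98 and 5.77 CPM in Vehicle and at 0.0515, 0.178 and 0.207 CPM in Control and 26.9, 21.04 and 2.04 CPM in Vehicle. The change of Clec4d was 4.96 ± 0.62 (SE) on the log2 scale (adjusted p = 0.00035); that of Clec4e was larger but not called by limma-voom (adjusted p = 0.108, in a range of 4.49e-10 to 0.108 over its alternatives). Pirb, an inhibitory receptor, rose from 4.32, 3.68 and 4.14 CPM to 46.5, 37.1 and 20.1 CPM (log2 difference of 3.09 ± 0.37 (SE), adjusted p = 0.000268). Fcgr3, a low-affinity receptor for antibody, rose from 7.001, 10.6 and 9.37 CPM to 52.6, 46.1 and 28.2 CPM.

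The promoters of Clec4d and Clec4e are printed because these neighbours had the largest changes among the C-type lectins. Capitals mark GAGGAA on either strand, the core of the PU box to which PU.1 binds; the motif was chosen after these sequences had been read. Clec4d is at chr6:123261857-123262156 on the plus strand and Clec4e at chr6:123289822-123290121 on the minus strand (RefSeq, GRCm38.p6).
Clec4d: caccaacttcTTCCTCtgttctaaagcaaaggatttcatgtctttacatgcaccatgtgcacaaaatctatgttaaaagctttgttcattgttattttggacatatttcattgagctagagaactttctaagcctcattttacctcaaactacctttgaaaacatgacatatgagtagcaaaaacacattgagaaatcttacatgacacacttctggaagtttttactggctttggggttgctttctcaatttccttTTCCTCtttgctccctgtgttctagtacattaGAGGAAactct
Clec4e: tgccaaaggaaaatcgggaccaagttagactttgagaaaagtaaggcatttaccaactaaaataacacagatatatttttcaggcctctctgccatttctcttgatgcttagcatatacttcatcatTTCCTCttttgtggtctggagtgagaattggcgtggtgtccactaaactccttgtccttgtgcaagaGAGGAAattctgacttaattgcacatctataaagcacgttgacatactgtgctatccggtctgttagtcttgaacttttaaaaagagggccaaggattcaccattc
GAGGAA was in 22 of the 32 promoters (68.8%) that the table holds for 35 receptor genes of the runs, and in 7630 of all 27025 promoters (28.2%). The 35 were picked by hand as myeloid receptors. Other receptor genes of the runs, such as Cd200r1, Cd48, Tlr1 and Tlr6, were left out, so the share holds for that selection only. Clec4d and Clec4e, which prompted the choice of motif, are among the 32, and without them GAGGAA was in 20 of 30 (66.7%). The neighbouring promoters of gene arrays resemble each other, so the 32 are not independent, and a match is not a binding site.

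Within the Vehicle group the myeloid genes spread in different ways, and the examples were chosen after their values were seen. The following genes were several times lower in Vehicle 3 than in Vehicle 1 and 2. Cd300lf was at 29.9, 29.98 and 7.25 CPM, Mefv, which encodes pyrin, at 10.8, 10.4 and 2.55 CPM, Fgr, a Src-family kinase of myeloid cells, at 20.7, 17.4 and 5.87 CPM, and Mcemp1, a mast cell and neutrophil membrane protein, at 7.64, 8.11 and 1.68 CPM. S100a9, the calgranulin of neutrophils, was at 172, 175 and 31.5 CPM in Vehicle and 1.39, 4.51 and 8.49 CPM in Control (log2 fold change 4.71, and 5.43 without Control 3). Nlrp3, an inflammasome sensor, was at 16.7, 10.6 and 2.25 CPM (log2 fold change 4.60, and 3.99 without Vehicle 1). In each of these genes Vehicle 3 was still above every Control library.

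Other myeloid genes differed less: the mean of Vehicle 1 and 2 was 1.67 times the value of Vehicle 3 for Spi1, 1.75 times for Fcgr3 and 1.46 times for Mrc1, the mannose receptor of macrophages, but 2.79 times for Clec7a, the beta-glucan receptor. C1qa, C1qb and C1qc, the chains of the first complement component, were at 95.5, 91.5 and 98.8, at 86.7, 88.8 and 95.1 and at 80.3, 70.6 and 84.1 CPM, against 29.7, 37.6 and 37.1 CPM of C1qa in Control. Trem2, a lipid receptor of macrophages, was at 3.09, 4.98 and 4.81 CPM in Control and 18.1, 12.8 and 18.2 CPM in Vehicle, Ms4a7 at 4.79, 8.24 and 5.901 CPM in Control and 31.5, 24.3 and 27.97 CPM in Vehicle and Clec4a2 at 1.39, 1.54 and 1.398 CPM in Control and 8.15, 7.08 and 8.62 CPM in Vehicle. Adgre1, which encodes F4/80, rose from 6.02, 9.19 and 7.56 CPM to 29.6, 24.6 and 24.4 CPM (log2 difference of 1.79 ± 0.21 (SE), adjusted p = 0.000244). The mean of Vehicle 1 and 2 was at least 3 times the value of Vehicle 3 in 89 of 1507 higher genes that averaged 1 CPM or more in Vehicle (5.91%), and in 9 of 40 such receptors of the Fc, Siglec, CD300, PIR and MS4A list (22.5%) and 2 of 19 C-type lectins (10.5%). The median of that ratio was 1.13 over all these genes and 1.65 over the receptors. Vehicle 3 also differed from the other Vehicle pools in clock phase, and its muscle markers summed to more (1726 CPM against 269 and 787); the part of these in the difference was not tested.

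**Figure D4:**
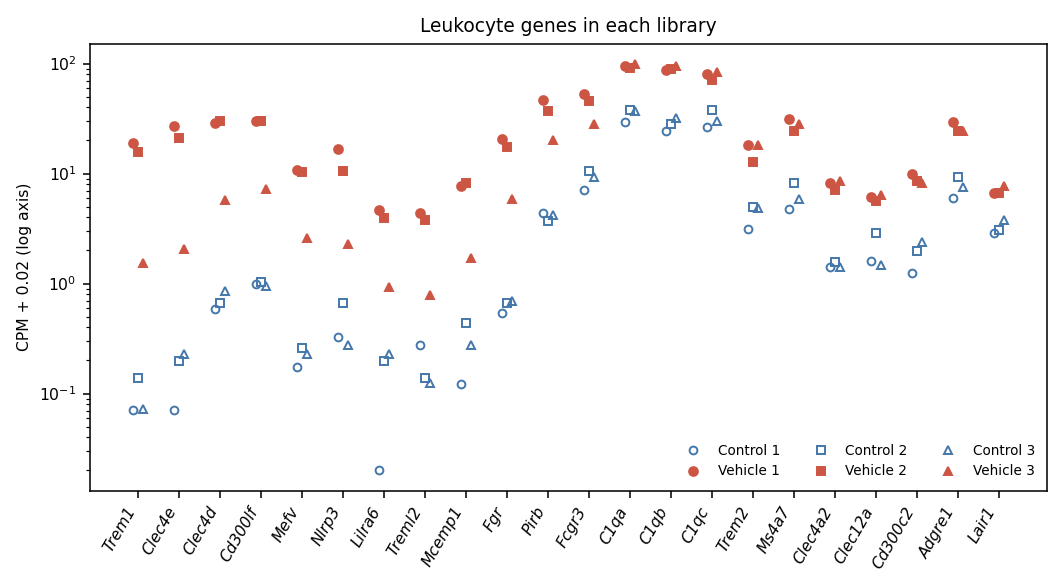
Level of 22 leukocyte genes in CPM (plus 0.02, on a log axis) in each library; filled symbols are Vehicle, open symbols Control, and the shape gives the replicate. From Trem1 to Mcemp1 on the left, Vehicle 3 (triangles) lies well below Vehicle 1 and 2, and from C1qa on the right the 3 Vehicle libraries lie close together.

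Proteases and their inhibitors changed in both directions. Of 13 tested cathepsins 7 (53.8%) were higher and 1 (7.69%) lower, beside 9.58% and 6.92% of all tested genes. Ctss, the cathepsin of antigen-presenting cells, rose from 31.5, 47.5 and 43.6 CPM to 147, 109.5 and 98.6 CPM. Ctsk, the collagen-degrading one, rose from 23.99, 33.7 and 20.1 CPM to 62.2, 55.1 and 105 CPM, with Vehicle 3 highest. Of 41 ADAM and ADAMTS proteases 10 (24.4%) were higher and 2 (4.88%) lower. Adam12, a protease of activated mesenchyme, had 1.44, 0.652 and 1.71 CPM in Control and 16.9, 23.1 and 16.3 CPM in Vehicle (log2 difference of 3.87 ± 0.61 (SE), adjusted p = 0.00129), and Adam8, a leukocyte protease, had 4.27, 3.68 and 9.89 CPM in Control and 99.2, 88.1 and 22.5 CPM in Vehicle. Adam28 rose from 27.4, 29.4 and 38.4 CPM to 147, 118 and 90.3 CPM. Of 7 tested kallikreins 4 (57.1%) were higher and none lower. At an unadjusted p under 0.05 in edgeR 4 of them differed too, a threshold for which no share of all tested genes is given here. Among the higher was Klk8, a skin kallikrein, with 3.86, 4.68 and 4.81 CPM in Control and 13.2, 12.1 and 10.2 CPM in Vehicle.

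Membrane and secreted serine proteases had 6 higher (20%) and 7 lower (23.3%) among 30 tested genes, beside 9.58% and 6.92% of all tested genes. Prss12, also called neurotrypsin, rose from 1.54, 2.79 and 2.17 CPM to 13.1, 13.1 and 5.21 CPM. Inhibitors changed both ways as well. Spink7, an epithelial Kazal-type inhibitor, had 149 counts in Control and 1 in Vehicle, a ratio of 159.3 in favour of Control (95% interval 28.1 to 6333, counting error only); its fitted log2 fold change was -6.83, and -8.67 without Vehicle 3. Spink13 fell from 1.49, 1.897 and 1.76 CPM to 0, 0.195 and 0.204 CPM. Serpinb3a, an epithelial inhibitor of cysteine and serine proteases, rose from 40.1, 109 and 87.4 CPM to 1279, 916 and 1081 CPM (log2 difference of 3.79 ± 0.44 (SE), adjusted p = 0.000239). Its relative Serpinb3c, in the same run of genes, rose from 0.618, 1.54 and 1.45 CPM to 22.2, 12.9 and 17.9 CPM, and reads of the pair may be divided uncertainly.

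Among antimicrobial and iron-handling genes, 8 of 29 tested genes of metallothionein and iron metabolism (27.6%) were higher and 1 (3.45%) was lower. Of all tested genes 9.58% were higher and 6.92% lower. Ltf, the iron-binding lactoferrin of tears and neutrophil granules, had 22.8, 73.5 and 104 CPM in Control and 967, 839.6 and 681 CPM in Vehicle (log2 difference of 3.63 ± 0.52 (SE), adjusted p = 0.000815). Its lowest Vehicle pool, Vehicle 3, was far above its highest Control pool. Steap4, a ferric reductase, rose from 39.6, 56.4 and 55.8 CPM to 321, 236 and 163 CPM. Pglyrp1, a peptidoglycan-binding protein, rose from 207, 462 and 361 CPM to 1429, 1211 and 1163 CPM, and Bpifb1, a BPI-fold protein of airway secretions, from 2.57, 3.44 and 2.23 CPM to 21.6, 17.2 and 11.3 CPM. Cbr2, a lung carbonyl reductase, and Ceacam1, an adhesion receptor of epithelia, were among the largest gains in CPM, from 405, 790.5 and 561 to 2208, 1538 and 2139 and from 353, 455 and 811 to 2203, 1542 and 1370.

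Lrrc15, a membrane protein of activated fibroblasts, had 0.3604, 0.119 and 0.466 CPM in Control and 15.5, 21.04 and 33.2 CPM in Vehicle (log2 difference of 6.15 ± 0.80 (SE), adjusted p = 0.000448), with Vehicle 3 highest. Has2, a hyaluronan synthase, rose from 3.55, 4.68 and 10.3 CPM to 35.8, 26.4 and 20.4 CPM (log2 fold change 2.15, and 2.74 without Control 3). Grem1, a secreted BMP antagonist, rose from 4.12, 5.396 and 3.11 CPM to 19.9, 13.2 and 17.6 CPM (log2 difference of 2.01 ± 0.23 (SE), adjusted p = 0.000253), and Fgf7, the stromal growth factor for epithelial cells, from 1.596, 1.897 and 1.29 CPM to 6.501, 7.47 and 3.67 CPM. Of 52 tested BMP and activin genes 9 (17.3%) were higher and 2 (3.85%) lower, beside 9.58% and 6.92% of all tested genes. Of 20 FGF genes 2 (10%) were higher and 3 (15%) lower. The TNF receptor superfamily genes Tnfrsf23, Tnfrsf26 and Eda2r rose by 2.77, 2.22 and 2.31. They were among 7 higher (17.9%) and 1 lower (2.56%) of 39 tested genes of the TNF superfamily. Of the adhesion genes, the cadherins Cdh13 and Cdh11 rose by 1.19 and 0.60.

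Several genes of secreted and surface signals that are in none of the lists were lower. Wnt3a and Wnt2, secreted ligands, fell from 10.7, 8.95 and 5.69 CPM to 1.45, 0.928 and 1.23 CPM and from 9.37, 16.01 and 9.47 CPM to 2.17, 1.42 and 1.48 CPM. Efna3, an ephrin ligand, fell by 2.95 on the log2 scale, Adtrp, a regulator of tissue factor pathway inhibitor, by 2.85, and Spon2, a matrix protein also called mindin, by 2.92. Epop, a partner of the Polycomb complex, fell from 45.6, 72.5 and 25.9 CPM to 6.97, 6.69 and 4.797 CPM.

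Genes gained without being in any list included Dynap, a membrane protein of unclear role, from 0.103, 0.474 and 0.518 CPM to 28.3, 12.7 and 12.2 CPM (log2 difference of 5.59 ± 0.67 (SE), adjusted p = 0.000286), and Dmkn, a secreted protein of suprabasal epidermis, from 0.309, 0.889 and 0.725 CPM to 28.9, 21.3 and 8.37 CPM. Csn1s1, the milk casein, had 1 count in Control and 406 in Vehicle, a ratio of 379.8 (95% interval 67.8 to 15040, counting error only), with 8.26, 10.4 and 1.63 CPM in the 3 Vehicle libraries; its fitted log2 fold change was 8.11, and 10.04 without Control 2. Among genes known by identifier alone, 0610040J01Rik rose by 2.51 and E130308A19Rik fell by 1.22, the latter from 18.4, 19.9 and 20.4 CPM to 8.56, 8.45 and 8.22 CPM. Gm13304 and Gm10591 held identical values in all 6 libraries and rose by 2.67; whether they were counted from separate reads cannot be told.

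Several large families stayed near or under the background of 16.5% called. None of 88 tested oxidative phosphorylation genes and none of 50 proteasome subunits was called, although 6 and 5 of them had an unadjusted p under 0.05 in edgeR; DESeq2 and limma-voom called none of either. Of 100 genes taken by the ribosomal prefixes 4 were called, and of these the kinases Rps6ka5 and Rps6kc1 are no ribosomal proteins. Few calls did not mean equal numbers each way. The log2 fold change was above 0 in 30 of the oxidative phosphorylation genes, 8 of the proteasome subunits and 12 of the ribosomal-prefix genes. Their medians were -0.06, -0.11 and -0.16, beside 0.00 over all tested genes. Of 373 Zfp zinc finger genes 23 (6.17%) were called, 18 lower and 5 higher, and of 65 protocadherins 3 (4.62%). Of 44 genes of fatty acid and triglyceride metabolism 5 (11.4%) were called. Hedgehog pathway genes had 1 call each way among 16.

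None of 18 lens, 22 retina, 10 melanocyte and iris pigment and 15 skeletal muscle markers was called by edgeR, DESeq2 or limma-voom, with 0, 0, 0 and 1 at an unadjusted p under 0.05 in edgeR. Of 9 tested meibomian and sebaceous gland markers 2 (22.2%) were higher, beside 9.58% of all tested genes. They were the lipid droplet gene Cidea, from 1.596, 4.51 and 4.4 CPM to 13.6, 10.3 and 11.7 CPM, and the sterol acyltransferase gene Soat1, by 0.58 on the log2 scale. Of the markers that define the meibomian gland, Awat2 and Far2 were not called, and Krt79 and Elovl3 did not pass the filter on low counts. Muscle transcripts were unevenly present: the list summed to 488, 22.0 and 82.1 CPM in Control and 269, 787 and 1726 CPM in Vehicle, and all 15 genes had a higher mean in Vehicle. Myh13, a myosin of the muscles that move the eye, was called (log2 fold change 7.96, adjusted p = 0.0167) with 0.154, 0.178 and 0.103 CPM in Control and 0.568, 33.3 and 78.4 CPM in Vehicle. That call was lost without Control 1 (adjusted p = 0.0666), Control 2 (0.0518) or Control 3 (0.0634), the change was 6.81 without Vehicle 3, and the adjusted p ran from 1.29e-05 to 0.364 over the alternatives; Vehicle 1 and the Control libraries had almost none of the transcript. Of 7 tested mast cell markers 1 (14.3%) was higher and 1 (14.3%) lower, beside 9.58% and 6.92% of all tested genes. The higher one was Hdc, the histidine decarboxylase that neutrophils also express, with 53.4, 51.5 and 5.82 CPM in Vehicle, lowest in Vehicle 3, and 2.93, 1.78 and 3.83 CPM in Control. Hdc was not called by limma-voom (adjusted p = 0.0935, in a range of 6.71e-08 to 0.0935 over its alternatives). The other called marker, Kit, the stem cell factor receptor, was lower, from 112, 123 and 108 CPM to 34.1, 23.97 and 45.1 CPM (log2 difference of -1.73 ± 0.27 (SE), adjusted p = 0.00128), and it is expressed by melanocytes too. The proteases that define mast cells were not called.

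**Figure D5:**
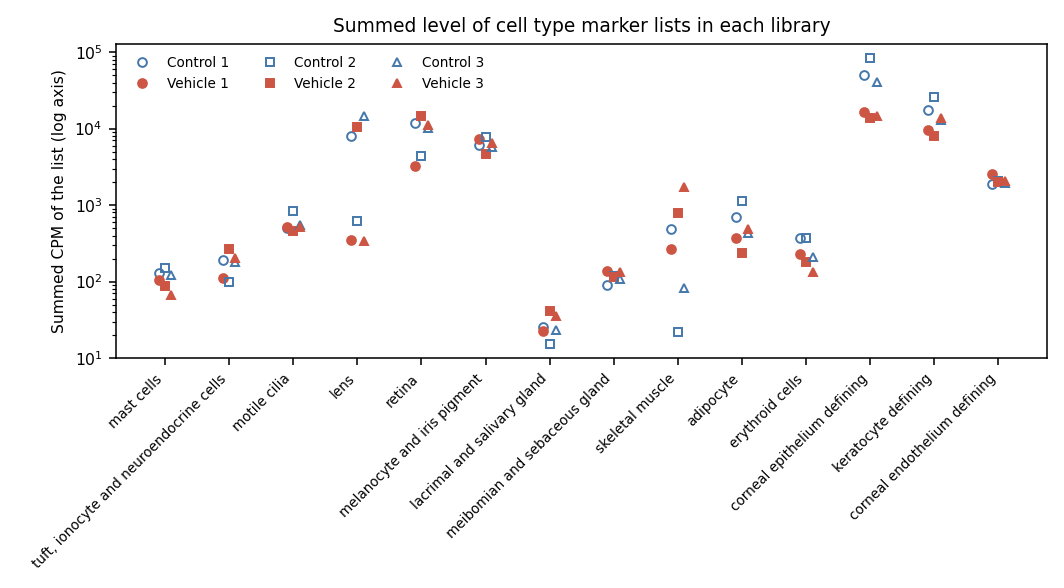
Summed CPM of 14 cell type marker lists (log axis) in each library; open symbols are Control, filled symbols Vehicle, and the shape gives the replicate. Lens and muscle sums differ many times over within a group, and the corneal epithelium list is lower in each Vehicle library (13670 to 16240 CPM) than in each Control library (41020 to 83310 CPM).

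Of the lists that define the cornea, the epithelial one had 8 of 10 genes lower (80%) and 1 higher (10%). In the keratocyte one 4 of 10 were higher (40%) and 2 lower (20%). The endothelial one had 1 of 8 higher (12.5%), Car12, and none lower. Of all tested genes 9.58% were higher and 6.92% lower, so the endothelial share was near the background. Endothelial markers, Car12 among them, summed to 1866 to 2034 CPM in Control and 2026 to 2572 CPM in Vehicle. Members of the keratocyte list went both ways. Among its defining markers Lum was higher, Kera was lower and Dcn was not called. Kera fell from 370.5, 300 and 198.1 CPM to 122.5, 61.96 and 132.6 CPM. Col1a1, the main stromal collagen, rose from 833, 913 and 479 CPM to 1283, 1255 and 2407 CPM. That call was lost without Control 3 (adjusted p = 0.0672) or Vehicle 3 (0.0808), in a range of 0.000403 to 0.0808 over the alternatives. These last counts describe lists that were chosen to check the tissue and give no independent support.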

How the data were processed

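RNA of 12 libraries, 3 per group, each from a pool of 6 corneas of 3 mice, was prepared with the RNeasy and TruSeq Stranded Total RNA kits, per the labels' protocols. The authors deposited estimated counts per gene. The submitters' processing notes name HISAT and GRCm38; no source states the counting tool, annotation or strand setting. The deposited estimated counts were rounded, filtered with filterByExpr (minimum count 10), scaled by TMM and tested with edgeR 4.0.16 (R 4.3.3) by robust quasi-likelihood fits over all 12 libraries with 1 term per group and Benjamini-Hochberg adjustment over 16124 genes, with a threshold of 0.05. The procedure was tested on simulated data. DESeq2 1.42.0 and limma 3.58.1 (voom) were among the alternatives.

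Genes, lists and tests were chosen with earlier results of these data known. Named genes were up to 4 called members per list with the largest changes, no overlap and a mean of at least 1 CPM in a group; the 20 largest changes each way in no list at 5 CPM or more, with 5 identifier genes each way; the 10 smallest adjusted p values; the 10 largest differences in CPM each way; up to 10 genes at 0 counts in a group; genes of runs of at least 4 called neighbours; Dbp and Arntl; and the most abundant marker of other cell types. Genes that an earlier account of these data had named, such as Slurp1, Lypd2, Krt12, Pax6, Muc5ac and Muc5b, are left out of the rule. They and Lcn11, Pip, Kera, Lum, Dcn, Awat2, Far2, Krt79, Elovl3, Fut8, Mgat2, Ppp1r15a and Mrc1 were named after their values were seen. Promoters are from RefSeq (GRCm38.p6). Some genes are not reported here.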

Additional observations from a re-analysis of the deposited data

How the results depend on the processing

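The 1545 higher and 1116 lower genes became 2020 and 868 with library totals only, 1798 and 1398 with DESeq2, 1420 and 1057 with limma-voom, 1475 and 1044 without the filter, 1898 and 1633 with the retina list as a covariate, and 1348 and 876 with clock phase as a term. In the fit of only the 6 Control and Vehicle libraries 1173 genes were higher and 604 lower. Within the high-clock libraries 393 were higher and 181 lower, and within the low-clock ones 129 and 25. Leaving out 1 library gave 1135 to 1518 higher and 626 to 1118 lower genes, the lowest without Vehicle 2. The median log2 fold change of all genes was 0.11 with library totals, 0.034 in the fit of 6 libraries and -0.020 to 0.004 with 1 library left out. A replicate block gave 1376 higher and 924 lower genes; the numbers do not pair the pools, since the deviations of same-numbered Control and Vehicle pools had correlations of -0.637, -0.614 and -0.178. The gene Arntl, not called at a log2 fold change of -0.01, was at 0.056 with library totals, 0.133 with limma-voom, 0.025 in the fit of 6 libraries, 0.136 with the replicate block, 0.035 with the retina covariate and -0.352 to 0.796 with 1 library left out. The causes were not tested. With 18988733 to 20443757 counts per library, levels under 0.147 to 0.178 CPM could not be told from 0, and 3 pools per group limit the precision of every fold change.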
